A study of Caenorhabditis elegans with 2 samples.

Results

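Binding sites of HMG-11 in the shared promoters of divergent (head-to-head) gene pairs of Caenorhabditis elegans are described here. A peak was counted as one of them when its summit, the base of highest enrichment, lay in the promoter window of at least 1 protein-coding transcript on the plus strand and at least 1 on the minus strand, of different genes. The window ran from 1000 bp upstream to 200 bp downstream of the annotated transcript start (Ensembl release 115, assembly WBcel235, the same as ce11). By this rule 709 of the 4037 peaks were both-strand peaks. A further 1747 peaks lay in windows of 1 strand only (one-strand peaks), and 1581 lay in no protein-coding window.

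HMG-11 was mapped by chromatin immunoprecipitation and sequencing (ChIP-seq) with an antibody against GFP. All animals were whole hermaphrodite L3 larvae of the strain TH184, collected 52 h after the synchronisation of starved L1 larvae obtained by bleaching. They carried the mutation unc-119(ed3) and the transgene ddIs101, from which HMG-11 is made with GFP and FLAG joined to its C-terminus, and the sheared chromatin came from sonication. There were 2 biological replicates of this 1 group, both from the same transgenic strain, and no untagged, input or other control list was analysed, so no comparison between groups of animals exists and no p-value is given. The tagged protein was read in whole animals, so the tissues in which a site was bound are not known from these lists.

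HMG-11 belongs to the HMGA type of chromatin proteins, small proteins with AT-hook motifs that grip the narrow minor groove of stretches of A and T and act on DNA shape and on the assembly of other factors. In the compact worm genome many neighbouring genes are transcribed away from each other from start sites that share one short stretch of intergenic DNA. Housekeeping genes, which are used by most cells, are common at such shared promoters in animals.

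The sequences below show what the strongest divergent sites look like, and include strong sites with high and low A+T content. They are the plus strand of the WBcel235 reference genome of RefSeq, 5′ to 3′, with the minus-strand gene to the left and the plus-strand gene to the right. Capitals mark runs of at least 5 A or at least 5 T. The first 5 windows are 300 bp with the summit in the middle, at the strongest sites with at least 150 bp between the summit and the start on either side.
rpl-15/K11H12.8, chrIV:654781-655080: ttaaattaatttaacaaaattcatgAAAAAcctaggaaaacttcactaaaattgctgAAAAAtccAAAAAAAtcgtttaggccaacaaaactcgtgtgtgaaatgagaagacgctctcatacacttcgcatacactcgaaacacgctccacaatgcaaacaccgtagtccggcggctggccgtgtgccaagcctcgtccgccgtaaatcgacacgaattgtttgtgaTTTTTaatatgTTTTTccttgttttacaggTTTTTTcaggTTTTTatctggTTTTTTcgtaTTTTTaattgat
rpl-20/Y17G9B.5, chrIV:4749908-4750207: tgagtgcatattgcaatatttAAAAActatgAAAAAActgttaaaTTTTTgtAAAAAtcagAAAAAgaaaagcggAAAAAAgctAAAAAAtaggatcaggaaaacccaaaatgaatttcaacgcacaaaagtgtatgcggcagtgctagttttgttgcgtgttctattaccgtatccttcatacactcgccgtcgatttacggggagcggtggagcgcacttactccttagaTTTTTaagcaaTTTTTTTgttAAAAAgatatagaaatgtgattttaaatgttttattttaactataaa
ifet-1/rps-1, chrIII:4475504-4475803: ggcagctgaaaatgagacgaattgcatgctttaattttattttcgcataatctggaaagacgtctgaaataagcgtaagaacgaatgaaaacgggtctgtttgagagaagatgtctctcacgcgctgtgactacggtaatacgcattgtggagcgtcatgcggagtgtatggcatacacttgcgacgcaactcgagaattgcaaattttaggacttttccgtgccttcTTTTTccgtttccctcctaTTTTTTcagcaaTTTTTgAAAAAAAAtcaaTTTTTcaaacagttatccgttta
let-70/klc-1, chrIV:11082848-11083147: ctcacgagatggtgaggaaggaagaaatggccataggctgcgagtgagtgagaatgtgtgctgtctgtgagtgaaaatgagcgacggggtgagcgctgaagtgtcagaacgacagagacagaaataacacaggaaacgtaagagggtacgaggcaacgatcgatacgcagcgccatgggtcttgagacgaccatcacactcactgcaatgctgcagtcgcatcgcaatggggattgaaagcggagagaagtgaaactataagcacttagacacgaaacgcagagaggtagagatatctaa
gcy-33/cpr-9, chrV:12002005-12002304: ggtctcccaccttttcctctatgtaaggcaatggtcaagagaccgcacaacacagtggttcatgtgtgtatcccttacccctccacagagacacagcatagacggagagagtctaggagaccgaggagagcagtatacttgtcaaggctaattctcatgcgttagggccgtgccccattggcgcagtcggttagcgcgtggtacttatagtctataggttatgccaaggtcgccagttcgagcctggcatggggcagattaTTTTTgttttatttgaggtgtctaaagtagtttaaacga
At rpl-15/K11H12.8 the summit lay in a stretch without such runs, with 3 runs of A to its left, none of T, and 6 runs of T to its right, none of A. At rpl-20/Y17G9B.5 there were 6 runs of A and 1 of T on the left, and 1 run of A and 2 of T on the right. The ifet-1/rps-1 window had 4 runs of T and 1 of A, all on the right. The let-70/klc-1 window had none. In the gcy-33/cpr-9 window, 1 run of T lay on the right, and the tRNA gene WBGene00014406 (chromosome V, 12002176 to 12002260) lay within the window printed.

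The next 4 windows are the 101 bp around the summit, chosen among the 100 strongest both-strand peaks on chromosomes II to V and X whose window lay between the starts. Within that selection, the first pair had the highest A+T content (71.3% and 65.3%) and the second pair the lowest (36.6% each). Over all 709 peaks it ran from 30.7% to 84.2%.
F55A11.1/syx-5, chrV:11764610-11764710: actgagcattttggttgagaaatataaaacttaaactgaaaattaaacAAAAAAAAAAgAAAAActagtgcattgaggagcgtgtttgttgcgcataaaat
hmgs-1/F25B4.4, chrV:5684755-5684855: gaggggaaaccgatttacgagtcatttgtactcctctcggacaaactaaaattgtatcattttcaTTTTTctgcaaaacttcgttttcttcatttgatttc
ift-43/mdt-26, chrII:5661075-5661175: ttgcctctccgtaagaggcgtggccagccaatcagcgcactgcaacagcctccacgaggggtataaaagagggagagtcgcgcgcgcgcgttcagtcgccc
Y77E11A.7/jtr-1, chrIV:1420275-1420375: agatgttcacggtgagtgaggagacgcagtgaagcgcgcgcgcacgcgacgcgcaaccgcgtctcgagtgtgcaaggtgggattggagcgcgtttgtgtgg

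There were 3 lists of 30000 candidate regions, 1 from each replicate and 1 from their pooled reads, with a peak signal computed by the authors. The signal is the authors' own value, on a scale not given in the sources used here, and it serves only for ranks and descriptions inside one list. The peaks are those the authors kept after a filter on the irreproducible discovery rate (IDR), which asks how alike the ranks of regions are in both replicates. Every one of the 4037 peaks had the position and signal of a pooled region, and together they were the top 4037 of that list. They made up 13.5% of the pooled list. The other 25963 regions served as the background of regions that were listed but were not peaks. Numbers of reads are not known from these lists, so sequencing depth enters no interval. Intervals are 95% Wilson intervals for shares and 95% order-statistic intervals for medians, and both cover counting over regions only, since regions of the same libraries are not replicates of the animals.

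Listed regions at divergent promoters were peaks more often than those at one-strand promoters. Of the 1432 listed regions in both-strand windows, 709 were peaks (49.5%, 46.9 to 52.1), against 1747 of 8588 in one-strand windows (20.3%, 19.5 to 21.2) and 1581 of 19980 in no coding window (7.91%, 7.55 to 8.30), with 13.5% over the whole list. Read the other way, both-strand windows held 28.9% (27.1 to 30.7) of the 2456 peaks in any coding window, and 9.56% (8.92 to 10.2) of the 7564 other regions in coding windows. Each replicate gave nearly the same shares when its 4037 strongest regions were set against the rest of its own list. In replicate 1 the both-strand share was 29.9% among the strongest and 10.1% among the rest, and in replicate 2 it was 28.4% and 9.71%. The excess in both-strand windows was present in both replicates, and whether it exceeds the spread between animals could not be tested with 1 group.

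A both-strand summit lies near more starts than a one-strand summit by construction, so the share was also taken at equal distance from the nearest start. Within 100 bp of a start, 47.7% (43.6 to 51.9) of both-strand regions and 18.7% (16.9 to 20.6) of one-strand regions were peaks. At 200 to 300 bp the shares were 61.2% (54.3 to 67.7) and 28.8% (26.1 to 31.7), and at 500 to 1000 bp they were 35.0% (24.2 to 47.6) and 14.5% (13.2 to 15.9). The both-strand share was the higher one in each of the 5 distance bins.

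The signal of both-strand peaks was only slightly higher than that of one-strand peaks. The pooled signal ran from 68.0 to 423 with a median of 114.6 (110.2 to 118.7) at both-strand peaks, and its median was 106.1 (103 to 109) at one-strand peaks, which included the strongest peak of all (529). The medians were 51.7 and 49.5 in replicate 1 and 68.3 and 66.2 in replicate 2, each in the scale of its own list. This order turned among the strongest 50% of peaks, where the medians were 138.8 for both-strand and 144.8 for one-strand peaks. Both-strand peaks were most frequent in the middle of the ranking. They were 26.6% of the coding-window peaks among the 500 strongest peaks, 35.0% from rank 1000 to the middle of the list, and 25.4% in the weaker 50%. At the edge of the list, the weakest both-strand peak, F49C12.12/vha-17, had a signal of 68.0, and the strongest both-strand region that was not a peak, ccf-1/trap-4, had 67.9. At the edge of the window, the summit at F33H2.8/F33H2.3 lay 1000 bp upstream of one start (signal 124), and a peak between R107.5 and cls-2, 1006 bp upstream of cls-2 (signal 162), was left out.

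**Figure D1:**
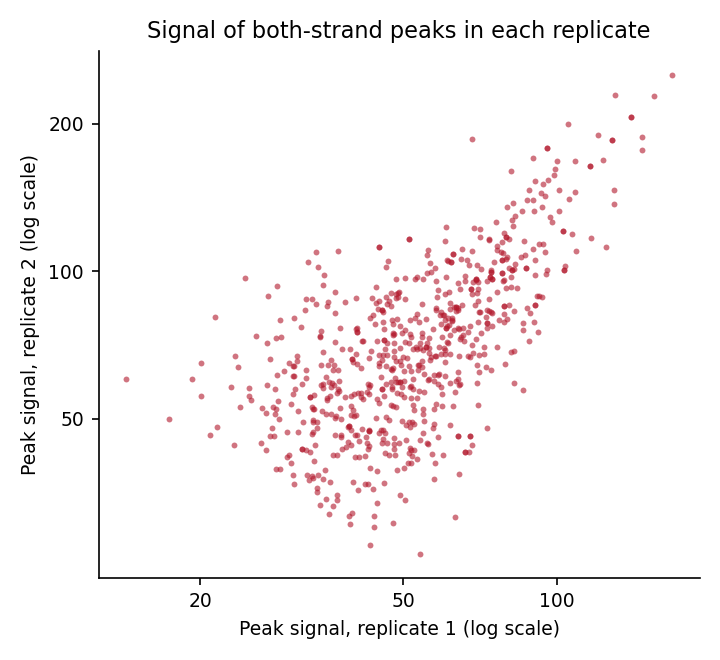
Peak signal in replicate 1 (x axis) and replicate 2 (y axis) at both-strand peaks, both on log scales, 1 point for each of the 705 peaks matched to a listed region of both replicates. Most points form one cloud that rises from lower left to upper right (Spearman's rho 0.62), with a wider spread at low signal.

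The replicates listed nearly all of these sites. The peaks were the top of the list pooled from these same 2 replicates, so this agreement is partly given by how they were chosen. A region of both replicate lists overlapped 705 of the 709 both-strand peaks by at least 1 bp (99.4%, 98.6 to 99.8). The same was so for 1740 of 1747 one-strand peaks (99.6%). Of the 709, 590 (83.2%, 80.3 to 85.8) overlapped one of the 4037 strongest regions in both replicates, against 1343 of 1747 one-strand peaks (76.9%, 74.8 to 78.8). Both-strand peaks also ranked higher in the pooled list (median rank 1734 against 2020), and the part of this in that contrast was not tested. The strongest 4037 of neither replicate held 6 both-strand peaks (0.846%) and 34 one-strand peaks (1.95%). Neighbouring peaks could match the same replicate region, which was so for 79 both-strand peaks in each replicate (11.1%). Without peaks that shared a match, the share among the strongest of both replicates was 81.4% (78.2 to 84.3) of 630 both-strand peaks and 73.8% (71.5 to 76.0) of 1501 one-strand peaks. Signals in the replicates were related across sites (Spearman's rho 0.62 over 705 both-strand peaks and 0.69 over 1740 one-strand peaks, as a description of regions that share libraries).

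A few sites were seen in 1 replicate only. Replicate 2 did not list W04C9.6/W04C9.2 (pooled signal 122), which ranked 711 in replicate 1. Replicate 1 did not list rocf-1/pqn-71 (113), ztf-9/ZK287.7 (100.4) and mpdu-1/F38E1.6 (82.8), which ranked 2100, 1736 and 2701 in replicate 2. Among the 3 weakest both-strand peaks the ranks differed most at the first. F13A7.11/F13A7.12 had a pooled signal of 68.4, 17.3 in replicate 1 (rank 12950) and 49.9 in replicate 2 (rank 2992). For nono-1/nop-1 the pooled signal was 68.2, with 28.5 (rank 5101) and 49.9 (rank 2998) in the replicates. For F49C12.12/vha-17 it was 68.0, with 34.0 (rank 3720) and 35.5 (rank 4963).

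The strongest divergent site lay between rpl-15, a large ribosomal subunit gene, and K11H12.8 (chromosome IV, 654812 to 655053). Its signal was 423 in the pooled list, 169 in replicate 1 and 252 in replicate 2, ranks 2, 4 and 2 of all regions. Its summit lay 354 bp upstream of rpl-15 and 460 bp upstream of K11H12.8. The next, between rpl-20, another gene of the large subunit, and Y17G9B.5 (chromosome IV, 4749955 to 4750194), had signals of 381, 155 and 228, with the summit 279 bp and 183 bp upstream. Both were among the 6 strongest regions of each replicate, and the windows printed above are theirs.

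The third site lay 318 bp upstream of sec-15, a subunit of the exocyst that tethers secretory vesicles, and 17 bp inside C28G1.2 on X, with a pooled signal of 356, 130.3 in replicate 1 and 229 in replicate 2. The tRNA gene WBGene00022947 also lay within 250 bp of this summit. At malt-1, the paracaspase gene, and ceh-38, a homeobox gene, on chromosome II the signals were 349, 140.1 and 207, and the summit was 38 bp inside ceh-38. These sites show that the window of 200 bp past a start admits summits just inside a gene.

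The fifth site was spe-48/Y51F10.11 on chromosome I, named for a spermatogenesis gene, with signals of 333, 147 and 188. K01G5.10/tasp-1 on chromosome III had 323, 147 and 177, and its summit lay 45 bp upstream of tasp-1, which encodes a taspase-type protease. At ifet-1, which encodes an eIF4E-binding translational repressor, and rps-1, of the small ribosomal subunit, the signals were 310, 105.3 and 199.7. Replicate 1 ranked it 130 and replicate 2 ranked it 19, the least alike pair of ranks among the 12 strongest sites. The let-70/klc-1 site, between a ubiquitin-conjugating enzyme and a kinesin light chain, had 307, 129 and 185. Its summit lay near the middle of a long gap, 744 bp from let-70 and 738 bp from klc-1.

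Of the last 4 of the 12 strongest sites, gcy-33/cpr-9 (chromosome V) lay between a guanylyl cyclase of sensory neurons and a cathepsin B-like protease, with signals of 305, 121 and 189. At trap-2/ile-2 on X, a pair of genes of the secretory pathway, the signals were 294, 124 and 169. The dad-1/tre-1 site on chromosome I, between an oligosaccharyltransferase subunit and a trehalase, had 281, 109 and 168, and ift-43/mdt-26 on chromosome II, between an intraflagellar transport gene and a Mediator subunit, had 279.9, 116 and 164. All 12 sites ranked among the 130 strongest regions of replicate 1 and the 90 strongest of replicate 2.

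Most summits of divergent sites lay between the starts. The summit was between the nearest start on each strand at 643 of the 709 peaks (90.7%, 88.3 to 92.6) and at 492 of the 723 other listed both-strand regions (68.0%, 64.6 to 71.3). Among those between the starts, it lay in the central one of 3 equal segments of the gap at 295 of 643 peaks (45.9%, 42.1 to 49.7) and at 176 of 492 other regions (35.8%, 31.7 to 40.1). The remaining 66 peaks lay inside a gene, 37 within the first 200 bp of the plus-strand gene and 29 of the minus-strand gene. Neither side was favoured in number, since 359 summits were nearer to the plus-strand start, 349 nearer to the minus-strand start and 1 equally near.

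**Figure D2:**
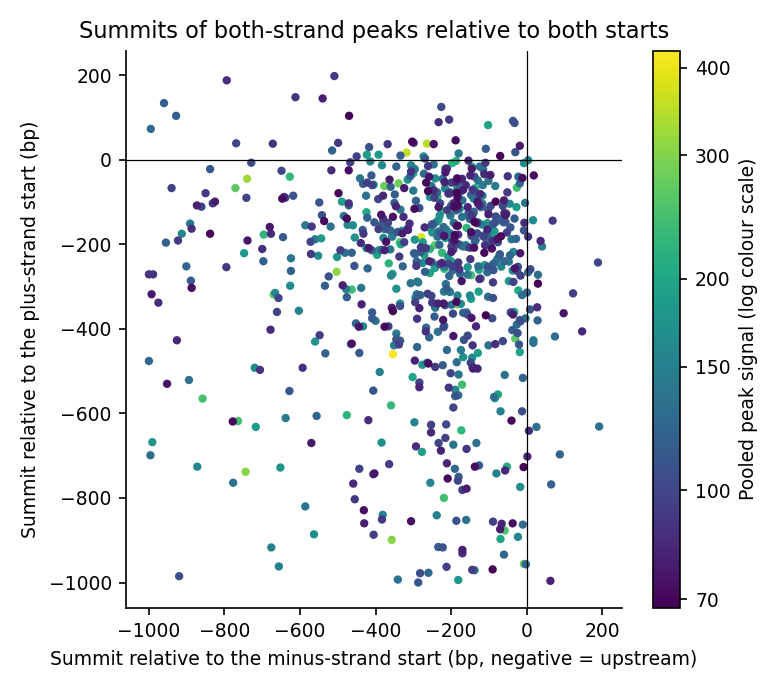
Position of each of the 709 both-strand summits relative to the nearest minus-strand start (x axis) and the nearest plus-strand start (y axis), in bp with negative values upstream, coloured by pooled signal on a log colour scale. The lower left quadrant, upstream of both starts, holds 643 points, and they are densest within about 300 bp of both starts.

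Divergent sites also lay closer to a start than one-strand sites. The nearest start was a median of 140 bp (129 to 153) from the summit and the farther one 354 bp, against 251 bp (237 to 264) to the nearest start at one-strand peaks. Within 300 bp of the nearest start lay 623 both-strand summits (87.9%) and 57.9% of one-strand summits. The summit lay upstream of both starts and within 300 bp of each at 263 peaks (37.1%) and at 96 of the other both-strand regions (13.3%). With summits inside a gene counted too, both starts were within 300 bp at 292 peaks (41.2%). A summit with windows on both strands has more starts that it can be near, so part of this closeness is given by the rule.

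The distance from start to start was a median of 493 bp at the peaks, with quartiles of 311 and 766 bp, and 575 bp at the other both-strand regions. Regions with starts 250 to 500 bp apart were peaks most often (260 of 458, 56.8%), with a median signal of 117.9. The share was 49.0% (97 of 198) under 250 bp, 48.0% (271 of 565) at 500 to 1000 bp and 38.1% (77 of 202) over 1000 bp, with median signals of 106.0, 116 and 107. Starts overlapped at 4 peaks, rpb-7/Y54E10BR.2, F30F8.5/taf-5, Y50D4A.4/wrb-1 and rec-1/pif-1, of which rpb-7, a subunit of RNA polymerase II, had the highest signal (156, with 77.2 and 79.6 in the replicates). The shortest gaps were 12 bp at F32D8.14/F32D8.5 (signal 109), 15 bp at F25H9.6/F25H9.7 (166) and 18 bp at aptf-2/pik-1 (71.9). The longest were 1659 bp at mif-4/ipla-6 (176), 1695 bp at anmt-2/nfm-1 (129) and 1905 bp at his-42/F08G2.4 (106).

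The 709 peaks fell on 671 distinct nearest pairs, of which 633 had 1 peak and 38 had 2. In the pairs with 2 peaks the summits were 199 to 779 bp apart, with a median of 207 bp, and a listed region was at most 456 bp wide. The stronger signal was a median of 1.80 times the weaker one (1.01 to 5.08 times), and at least 2 times in 15 of the 38 pairs. The pairs with the strongest peaks were malt-1/ceh-38 (349 and 68.7) and let-70/klc-1 (307 and 73.8). At 657 peaks the window rule named 1 gene on each strand, and at 52 it named 3 or more genes. In all, 1392 coding genes had a both-strand peak, and 33 of them had a one-strand peak as well.

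To set divergent pairs against other arrangements without the window rule, peaks were counted in the gaps between adjacent protein-coding genes. Over the 11945 gaps of up to 2000 bp, 10.4% held a peak summit. Head-to-head gaps, where both genes start, held one in 666 of 2492 (26.7%, 25.02 to 28.5). Tandem gaps, with 1 start, held one in 557 of 7291 (7.64%, 7.05 to 8.27), and tail-to-tail gaps, with none, in 22 of 2162 (1.02%, 0.673 to 1.54). The replicates alone gave 25.9% and 26.5% of head-to-head gaps, 7.05% and 7.52% of tandem gaps, and 1.34% and 1.203% of tail-to-tail gaps.

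**Figure D3:**
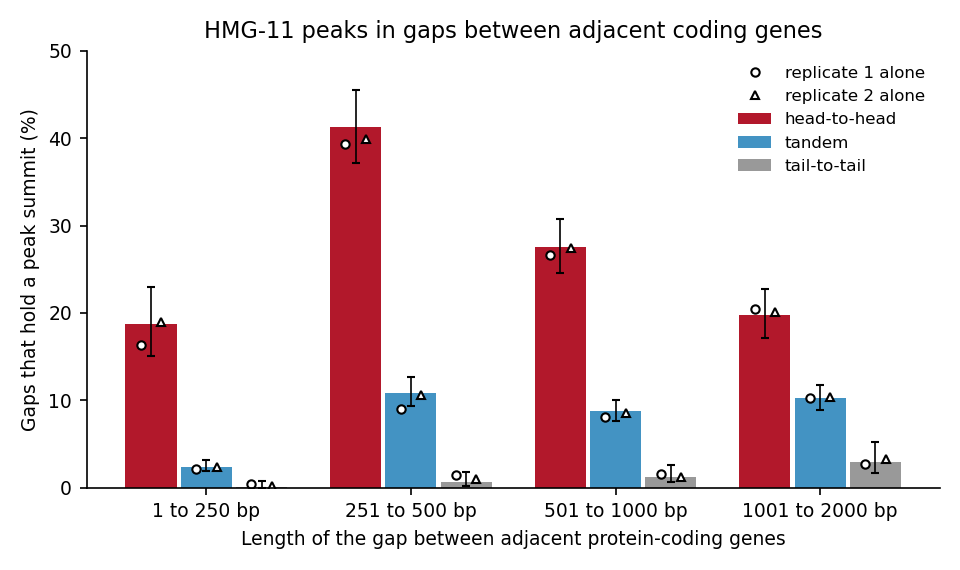
Share of gaps between adjacent protein-coding genes that hold a peak summit (y axis, percent), by gap length (x axis, bp) and by the orientation of the genes, with bars for the pooled peaks, 95% Wilson intervals, and open symbols for the 4037 strongest regions of each replicate. Head-to-head gaps have the highest bar in every length class, 41.2% at 251 to 500 bp against 10.9% for tandem gaps.

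The order held within each length class. In gaps of 251 to 500 bp the shares were 41.2% head-to-head, 10.9% tandem and 0.615% tail-to-tail, and in gaps of 1001 to 2000 bp they were 19.8%, 10.2% and 2.97%. Head-to-head gaps of 1 to 250 bp held a peak in 18.7%, and tandem gaps of that length in 2.44%. Per kb of gap there were 0.367 peaks head-to-head, 0.124 in tandem and 0.0197 tail-to-tail. Head-to-head gaps contain 2 starts and tandem gaps 1, and the part of the number of starts in these shares was not tested. Gaps with any listed region differed as well, since 70.9% of such head-to-head gaps held a peak, 43.9% of tandem gaps and 12.2% of tail-to-tail gaps.

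Divergent sites were spread over the autosomes and scarce on X. Chromosome I had 169 both-strand peaks, II 110, III 162, IV 117 and V 116, and they were 35.4%, 31.9%, 34.6%, 29.5% and 32.7% of the coding-window peaks of those chromosomes. On X there were 35, or 8.45%, beside 379 one-strand peaks. X also had the fewest head-to-head gaps. Of its 176 gaps of up to 2000 bp, 47 held a peak (26.7%, 20.7 to 33.7), close to the 26.7% over all chromosomes, and the share ran from 17.2% on V (110 of 640) to 38.9% on III (144 of 370). The median signal at both-strand peaks was highest on X (122) and lowest on II (109).

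The summits of divergent sites were poorer in A and T than promoters at large. In the 101 bp around the summit the median A+T content was 54.5% at both-strand peaks (quartiles 49.5 and 59.4), 52.5% at one-strand peaks and 51.5% at peaks in no coding window. It was 64.4% at the other both-strand regions and 66.3% at all 29304 coding promoters, taken 150 bp upstream of each start. Within the both-strand peaks, signal fell as A+T content rose, from a median of 150.2 in the 178 peaks with the least A+T to 121, 107 and 89.8 in the 3 following groups of 177. The replicates gave the same order, with 64.9, 54.4, 50.3 and 44.8 in replicate 1 and 88.4, 71.4, 64.3 and 57.4 in replicate 2. Whether base composition affects recovery of DNA in these libraries was not tested.

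The higher peak share of divergent regions was present at every level of A+T content. Among listed regions under 50% A+T, 86.4% (81.5 to 90.2) of both-strand regions and 52.3% (49.5 to 55.1) of one-strand regions were peaks. At 55 to 60% the shares were 53.9% and 21.5%, and at 65% and over they were 21.6% (18.0 to 25.8) and 5.28% (4.54 to 6.12).

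**Figure D4:**
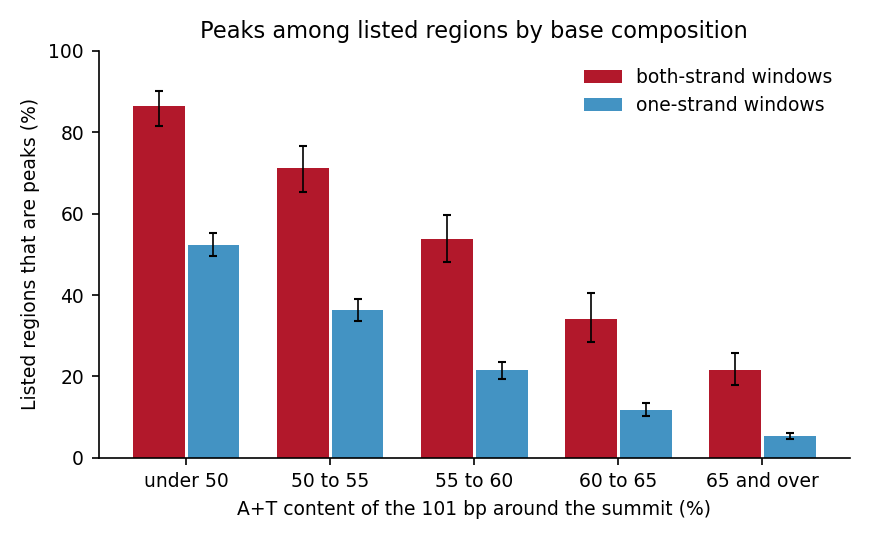
Share of listed pooled regions that are peaks (y axis, percent) by the A+T content of the 101 bp around the summit (x axis, percent), for both-strand and one-strand windows, with 95% Wilson intervals. Both sets of bars fall from left to right, and the both-strand bar is the higher one in each band, 86.4% against 52.3% under 50% A+T.

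The low A+T content was limited to the bases around the summit, and the flanks of divergent sites were rich in A and T. In bins of 25 bp, A+T content was 51.8% at the summit of both-strand peaks, 67.5% at 100 bp to the left and 69.0% at 100 bp to the right. At one-strand peaks it was 51.9%, 61.7% and 62.8%, and at the other both-strand regions 63.1%, 67.6% and 65.5%. On average each flank was richer in its own letter, as in the rpl-15/K11H12.8 and rpl-20/Y17G9B.5 windows printed above. The ifet-1/rps-1, let-70/klc-1 and gcy-33/cpr-9 windows did not have this layout of runs on both sides. On the plus strand, A made up 40.2% of bases 80 bp to the left of the summit and T 26.99%, while T made up 40.7% and A 28.7% at 100 bp to the right. Read in the direction of each gene, T was thus the more frequent letter at these distances on both sides of the summit. Distances were counted from the summit and did not stop at a start. At 263 of the 709 both-strand peaks (37.1%) the nearer start was within 100 bp of the summit, so some of these bases lay inside a gene.

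Runs of A and T followed the same pattern in the zone 51 to 150 bp from the summit. Among the 643 peaks with the summit between the starts, a run of at least 5 A lay on the left in 71.7% (68.1 to 75.04) and on the right in 45.1% (41.3 to 49.0). A run of at least 5 T lay on the left in 42.5% (38.7 to 46.3) and on the right in 71.2% (67.6 to 74.6). Runs of A on the left and T on the right occurred together in 336 (52.3%, 48.4 to 56.1), and T on the left with A on the right in 125 (19.4%, 16.6 to 22.7). At the 492 other regions between starts, runs of A were in 52.4% on the left and 47.6% on the right, and runs of T in 60.6% and 56.1%. One-strand peaks, turned so that the gene lay to the right, had runs of T in 64.3% on the gene side and 46.8% on the far side, and runs of A in 28.3% and 42.0%.

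**Figure D5:**
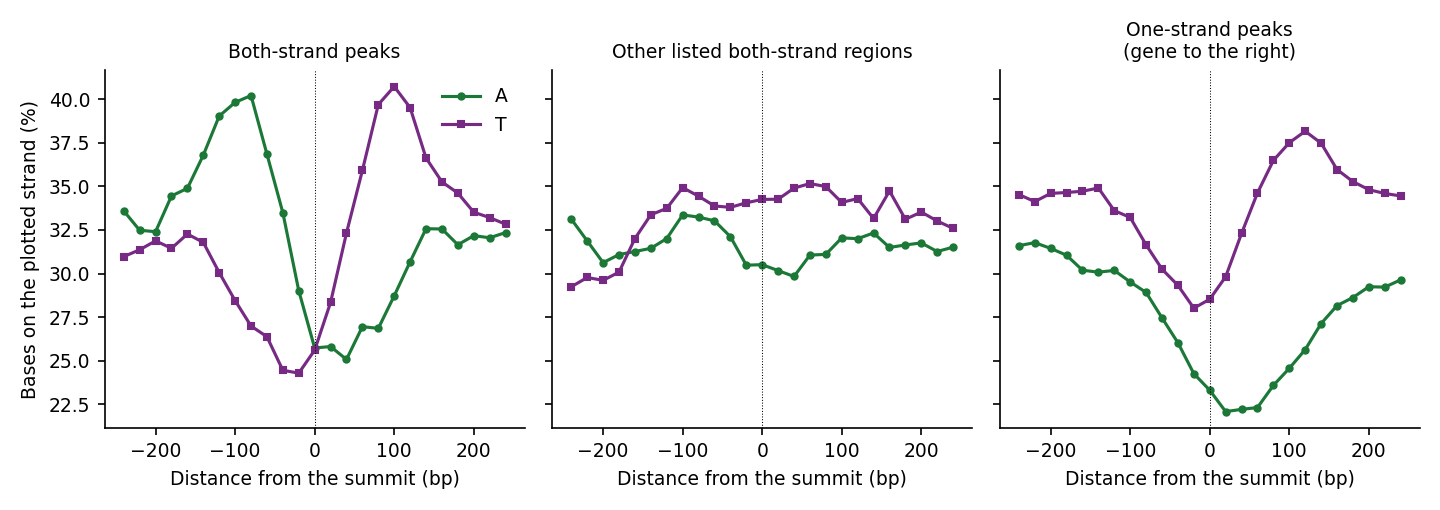
Share of A and of T (y axis, percent of bases) by distance from the summit (x axis, bp), on the plus strand for 643 both-strand peaks and 492 other listed both-strand regions with the summit between the starts, and for 1619 one-strand peaks turned so that their gene lies to the right. At both-strand peaks A rises to 40.2% on the left and T to 40.7% on the right, and at the one-strand peaks T rises on the gene side, to 38.2%.

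This layout was stable across the replicates. Runs of A on the left and T on the right were in 69.7% and 71.2% of the sites of replicate 1 alone and in 71.4% and 70.4% of those of replicate 2 alone. With starts over 300 bp apart, the shares were 69.7% and 70.9%. The zone could still reach into a gene there, where the summit was near 1 of the starts. The summit was the midpoint of the region at nearly all these peaks, since only 23 lay in regions narrower than the full width or off centre. How precisely a summit marks the bound bases was not tested.

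Of the sequence motifs searched on both strands of the 101 bp around the summit, AAAAAA was in 33.6% of both-strand peaks, 27.02% of one-strand peaks and 45.6% of all coding promoters. GAGAGA was in 16.9% (14.3 to 19.9) of both-strand peaks, 31.8% (29.7 to 34.0) of one-strand peaks and 37.8% of peaks in no coding window, and in 8.85% of all coding promoters. On autosomes it was in 16.6% (14.0 to 19.6) of both-strand and 30.4% (28.0 to 32.9) of one-strand peaks. On X it was in 22.9% (8 of 35, 12.1 to 39.0) and 36.9% (32.2 to 41.9), with intervals that overlap. The TATA sequence TATAAA was in 5.64% and 4.41% of both-strand and one-strand peaks against 12.8% of promoters. The E-box CACGTG was in 2.26% and 2.80% against 1.80%, and the GC box CCCGCC in 5.50% and 6.07% against 2.31%. An unbroken stretch of at least 10 A or T in any order was in 28.2% of both-strand peaks, 18.1% of one-strand peaks and 45.9% of promoters.

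Ribosomal protein genes were the list with the most both-strand peaks. Of the 6853 coding genes with a listed region in their window, 2983 had a peak (43.5%), and 1392 of these (46.7%) had a both-strand peak. Over all 19973 coding genes 2983 had a peak, which is the background for peak counts over whole lists. The 46.7% is the background for both-strand shares of genes with a peak. Among 81 genes of cytosolic ribosomal proteins, 75 had a listed region, 70 a peak and 46 a both-strand peak, or 65.7% of those with a peak. Several lay at pairs in which both genes encode ribosomal proteins. At rps-10/rpl-24.1 the signal was 220.0, with 109 and 110.0 in the replicates, at rpl-39/rps-30 it was 189.9, with 95.6 and 100.5, and at rps-14/rpl-36 it was 127, with 69.9 and 59.1. Of 70 genes of mitochondrial ribosomal proteins, 29 had a peak and 19 a both-strand peak, with mrpl-40 (181), mrpl-17 (171) and mrps-7 (160.4) the strongest.

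Among translation factors, 27 of 41 had a peak and 16 a both-strand peak (59.3%). The strongest were iff-2, an eIF5A gene (253, with 98.7 and 157 in the replicates), eef-1B.1 (206) and eif-3.I (187). Of 32 aminoacyl-tRNA synthetases, which charge tRNAs, 12 had a peak and 10 a both-strand peak (83.3%), led by ears-2 (244), fars-1 (136) and nars-1 (124). Of 40 genes of the respiratory chain and ATP synthase 27 had a peak and 18 a both-strand peak (66.7%), led by atp-1 (212), atp-2 (197) and mev-1 (195), the last of which encodes a subunit of complex II. Over all coding genes with a peak, 46.7% had a both-strand peak. Of the genes with a listed region, 79.4% of translation factors and 81.8% of the respiratory list had a peak. The synthetases had one at 12 of 24 (50%), near the 43.5% over all coding genes with a listed region.

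Of 58 chaperone genes, which serve protein folding, 32 had a peak and 25 a both-strand peak (78.1%). A single peak lay between hsp-110 and rpn-3, a chaperone and a proteasome subunit, with a signal of 230.1, and 87.6 and 139.6 in the replicates. The DNAJ gene dnj-14 had 260.2 and the chaperonin gene cct-1 had 243. The heat-shock pair hsp-16.2/hsp-16.41, whose genes are induced by heat, had 85.9, with 33.4 and 52.5 in the replicates. Of 33 proteasome genes 18 had a peak and 14 a both-strand peak (77.8%), with pas-4 (159) and rpt-4 (154) next to rpn-3. The ubiquitin list had 14 of 31 (45.2%), near the 46.7% over all coding genes with a peak, led by ubc-6 (172), ubq-2 (170.4) and ubc-12 (164).

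For RNA processing, 24 of the 29 spliceosome and RNA-binding genes with a peak had a both-strand peak (82.8%). The highest were rnp-6 (216), snrp-40.1 (196) and prp-8 (170.0), and the pair rsp-2/rsp-1, both of splicing factors rich in serine and arginine, had 158. Of 27 genes of RNA polymerase II, TFIID and Mediator with a peak 15 had a both-strand peak (55.6%), led by mdt-26 (279.9), mdt-19 (244) and taf-4 (164). The cell cycle and replication list was made from gene symbols such as cdk- and cdc-, and not by the function of each member. It had 16 of 31 (51.6%), with cdk-9 (239.8), cye-1 (181) and rfc-4 (172) the strongest, and a pair of list members at orc-5/cyb-1 (102). Chromatin genes had 19 of 41 (46.3%), led by set-16 (224), lin-53 (218) and lin-54 (195). The small GTPase list, made from symbols such as rab-, arf- and ran-, had 12 of 17 (70.6%), with arf-6 (224), rab-18 (164) and rab-11.1 (162). The vesicle and V-ATPase list, made from symbols such as sec-, vps- and vha-, had 20 of 43 (46.5%), with sec-61.B (239.8) and vha-8 (187) after sec-15. Over all coding genes with a peak the both-strand share was 46.7%, near the shares of the chromatin and vesicle lists.

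Members of some large gene families seldom had a listed region of any kind. A region was listed for 18 of 911 chemoreceptor genes, 8 of 237 C-type lectin genes and 25 of 140 neuropeptide genes, against 6853 of all 19973 coding genes. Nuclear hormone receptor genes were not among these families, since 95 of 269 had a listed region. A peak was present at 26 of the 269, and 3 of these had a both-strand peak (11.5%), nhr-47 (163), nhr-142 (135) and nhr-184 (97.1). The 63 homeobox (ceh) genes had 2 of 6, ceh-38 (349) and ceh-100 (98.6). The cuticle list had 4 of 9 (44.4%), with bli-6 (134), col-38 (122) and col-71 (106) the strongest. Of 140 neuropeptide genes 3 had a peak, and 1 of these, nlp-4 (143), a both-strand peak (33.3%). Of 185 detoxification genes 7 had a peak, and 1 of these, gst-43 (83.9), a both-strand peak (14.3%). Chemoreceptor genes had 4 of 5 (80.0%), of which srh-16 (212), sri-5 (176) and srh-89 (157) were the strongest. F-box genes had 7 of 16 (43.8%), with fbxb-85 (178), fbxa-13 (129) and fbxc-44 (122) the strongest, and the pair fbxa-76/fbxa-77 had 120.3, with 33.8 and 85.6 in the replicates. C-type lectins had 2 of 4, clec-53 (95.4) and clec-87 (69.1). The share over all coding genes with a peak was 46.7%. The 6 short tissue marker lists (muscle, neurons, intestine, epidermis, germ line and pharynx) held 40 genes, of which 13 had a listed region, 3 a peak and 0 a both-strand peak, where 6.97% of all coding genes had one.

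A peak in a shared window is counted for both genes, so these counts do not show which gene of a pair a site belongs to. Among the HMG genes, hmg-12, the other AT-hook gene of this type, had a both-strand peak shared with vps-15 (chromosome II, 11915835 to 11916290). Its signal was 127, with 51.5 in replicate 1 and 74.6 in replicate 2, and its summit lay 450 bp upstream of hmg-12 and 211 bp upstream of vps-15. A both-strand peak was also present at hmg-4, shared with T20B12.3 on chromosome III (signal 90.4, with 40.4 and 50.9 in the replicates). The HMG-box genes hmg-1.1 and hmg-1.2 had one-strand peaks only (235.3 and 269), as did unc-119 (83.9). No listed region lay in the window of hmg-11.

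Genes of small RNAs lay near few of the divergent summits. A tRNA gene lay within 250 bp of 7 both-strand summits (0.987%, 0.479 to 2.02) and of 47 one-strand summits (2.69%, 2.03 to 3.56). A snoRNA gene lay near 4 (0.564%, 0.220 to 1.44) and 32 (1.83%, 1.30 to 2.57), and an snRNA gene near 3 and 10. The snoRNA gene M7.15 lay near both let-70/klc-1 peaks, and the spliced-leader gene sls-2.8 near both peaks of tim-1/Y75B8A.23 (186 and 72.4).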

How the data were processed

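HMG-11 ChIP-seq lists of 2 biological replicates were used. Candidate regions of each replicate and of the pooled reads, and the IDR peaks, were deposited by the authors on ce11, and regions were made against a control alignment, per the file headers of the deposited listing. The programs that aligned reads and called regions were not given in the sources used here. Each region's signal is the authors' deposited value, with no stated scale. A −log10 q-value was also deposited by the authors, but many regions share its maximum, so it gave no ranks. The deposited summit offset placed each summit. Lists on ce10 were not used here.

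Peaks were assigned to promoter windows of protein-coding transcripts of protein-coding genes (31853 transcripts of 19973 genes), with 1-based coordinates. Replicate regions were matched by an overlap of at least 1 bp, taking the strongest. Sequence was read from the RefSeq WBcel235 genome. Python 3.11.15, pandas 2.3.3, numpy 2.4.6, scipy 1.17.1 and matplotlib 3.10.9 were used, and the counting steps were tested on simulated data. Genes are named if they belong to the 12 strongest both-strand peaks, up to 3 members of each gene list, pairs within a list, the 3 shortest and 3 longest gaps, the 3 weakest peaks, peaks missing from a replicate, and the HMG genes and unc-119. Pairs with overlapping starts, with 2 peaks, at the edges of the rule, shown for their sequence or near small RNA genes were chosen after their values were seen.

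The members and lists were chosen with earlier results of these data known. Gene lists were made from the first part of gene symbols and from named symbols, so a list can hold genes whose function differs from its name. The comparisons of gap orientation, A+T bands, runs of A or T in the flanks, GAGAGA by chromosome, small RNA genes and shared matches were added after the data were seen. Alternatives were other windows, 1 start per gene, the strongest 50% of peaks, each replicate alone, a wider sequence flank and a stricter overlap. Sequencing depth is unknown from these lists.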

Additional observations from a re-analysis of the deposited data

How the results depend on the processing

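With 1 group of 2 replicates there was no test, so alternatives are given as values, and the cause of each shift was not tested unless its construction shows it. Across the alternatives run, the peak share was higher in both-strand than in one-strand windows in 6 of 6 (by 2.15 to 2.82 times), median A+T content was higher at both-strand peaks in 7 of 7, and median signal was higher at both-strand peaks in 5 of 6, the exception being the strongest 50% of peaks. A window from 500 bp upstream gave 505 both-strand peaks, a both-strand share of coding-window peaks of 24.7%, and peak shares of 57.3% (both-strand) and 24.1% (one-strand). A window ending at the start gave 55.8% and 22.1%, with 100% of summits between the starts by construction. With 1 start per gene, the one-strand peak share was 23.8%. The strongest 50% of peaks held 411 both-strand peaks, 32.0% of those in coding windows, with peak shares of 28.7% and 10.2%, median signals of 138.8 and 144.8, median A+T of 51.5% and 50.5%, and a peak in 16.9% of head-to-head gaps, where fewer peaks lower the counts by construction. In single replicates the median signal was 50.5 to 67.6 at both-strand and 48.5 to 64.0 at one-strand peaks, each in its own list's scale, the share between the starts 87.3% to 91.5%, and median A+T 54.5% to 55.4% and 52.5% to 53.5%. With 100 bp on either side of the summit, median A+T was 60.7% and 56.7%. Without regions of full width, an alternative chosen after seeing the data, it was 45.5% at the both-strand peaks left. Under an overlap of 50% of both regions, 96.5% of both-strand and 96.3% of one-strand peaks were listed in both replicates, and 79.7% and 72.8% were among the strongest of both. The other 37 values kept within their intervals or, for the count of both-strand peaks, between 505 and 715. Counting every transcript of a coding gene gave 712 both-strand peaks, also chosen after seeing the data. No paired analysis was possible because there is 1 group. Sites too weak for a place among the 30000 listed regions could not be assessed.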
